A study of Mus musculus with 12 samples.

Results

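The genes described here encode the receptors by which liver cells sense drugs, bile acids, fatty acids, oxysterols and hormones. The 10 genes were chosen by name, out of 32285 genes in the matrices, with earlier results of these samples known. They are Nr1i2, which encodes the pregnane X receptor (PXR), Nr1i3, the constitutive androstane receptor (CAR), Nr1h4, the farnesoid X receptor (FXR), Nr0b2, the small heterodimer partner (SHP), and Ppara, the peroxisome proliferator-activated receptor alpha. The others are Rxra, which encodes the retinoid X receptor alpha, Nr1h3, the liver X receptor alpha (LXR alpha), Esr1, the estrogen receptor alpha, Ahr, the aryl hydrocarbon receptor, and Thrb, the thyroid hormone receptor beta. All 10 were detected and all 10 passed the filter on low counts in hepatocyte nuclei.

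RNA was sequenced from single nuclei of 8 wild-type male mice aged 10 to 12 weeks, with 3 samples per mouse and 24 samples in all. The strain is given as C57BL6J in the labels and as C57BL/6NTac in the study's methods. Liver (L) was a lobe tied off and frozen after the blood had been cleared and before collagenase was added, Cell Suspension (CS) was the collagenase-released cells frozen after low-speed spins that favor hepatocytes, and Primary Hepatocytes (PH) were the same cells after 24 hours on collagen. The PH medium held 1 µM dexamethasone and 1 nM insulin with 0.5% serum, after plating in 10% serum, so that culture, medium and trypsin release all separate PH from the other groups and cannot be told apart.

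Most of these receptors bind DNA as a pair with the retinoid X receptor and switch genes on or off when a ligand enters the pocket. PXR and CAR control cytochrome P450 genes that clear drugs, FXR and its target SHP hold bile acid synthesis in check, PPAR alpha drives fatty acid oxidation, and LXR alpha drives sterol export and fat synthesis. The aryl hydrocarbon receptor is not a nuclear receptor by structure. It is a ligand-activated factor of another family that pairs with ARNT and controls Cyp1 genes, and it is counted with the others because it senses foreign compounds.

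The hepatocyte nuclei numbered 15166 in L, 13339 in CS and 16283 in PH, and their summed unique molecular identifiers (UMIs) ranged from 6872031 to 29023569 per L sample, from 2104087 to 17452582 per CS sample and from 9852007 to 21226254 per PH sample. The summed plain CPM (UMIs scaled to a common library total) of 6 hepatocyte markers in these nuclei ranged from 8161 to 13959 in L and from 2186 to 5932 in PH, so the hepatocyte label rested on markers that were themselves lower in culture. In the same nuclei 8 stellate markers summed to between 17.8 and 44.7 plain CPM in L and between 49.2 and 620 in PH, and 8 endothelial markers to between 29.4 and 46.5 in L and between 88.5 and 149.8 in PH, with none of them at 0 in either group. The part of these other-cell transcripts in the results below was not tested. A barcode found in more than 1 pool was carried by 676 of 53467 nuclei (1.26%).

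The 10 genes lie on 8 chromosomes in GRCm38 (GENCODE M21) and differ in length from 3.2 kb to 394 kb. Nr0b2 (chr4:133553376-133556536, plus strand) and Nr1i3 (chr1:171213970-171220701, plus strand) are the shortest. Nr1i2 lies at chr16:38248323-38294824 on the minus strand, Nr1h4 at chr10:89454234-89533585 on the minus strand, Ppara at chr15:85734983-85802819 on the plus strand and Ahr at chr12:35497974-35535038 on the minus strand. Rxra (chr2:27676440-27762957, plus strand) and Nr1h3 (chr2:91184061-91202834, minus strand) share a chromosome, as do Nr1h4 and Esr1 (chr10:4611593-5005614, plus strand), and Thrb lies at chr14:17660261-18038090 on the plus strand. Each position spans exons and introns, and UMIs from both were counted.

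RefSeq promoter sequences, from 250 bases before to 50 bases after a transcription start, were found for 9 of the 10 genes, 13 sequences in all. Those of Nr1i3 and Nr0b2, the 2 genes with the largest falls in culture, are shown first, followed by that of Nr1h4, the bile acid receptor. That of Ppara comes last and is richer in GC than the other sequences shown. Each is printed 5′ to 3′ on the gene's strand, with capitals marking matches on either strand to 6 short motifs that are spelled out after the sequences.
Nr1i3, GRCm38.p6 chr1:171213720-171214019, plus strand: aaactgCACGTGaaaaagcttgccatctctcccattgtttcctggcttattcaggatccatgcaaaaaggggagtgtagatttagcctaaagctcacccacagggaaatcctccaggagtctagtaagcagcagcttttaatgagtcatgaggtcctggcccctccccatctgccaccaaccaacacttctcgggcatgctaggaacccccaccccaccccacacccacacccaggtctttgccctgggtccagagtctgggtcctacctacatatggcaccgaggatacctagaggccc
Nr0b2, GRCm38.p6 chr4:133553126-133553425, plus strand: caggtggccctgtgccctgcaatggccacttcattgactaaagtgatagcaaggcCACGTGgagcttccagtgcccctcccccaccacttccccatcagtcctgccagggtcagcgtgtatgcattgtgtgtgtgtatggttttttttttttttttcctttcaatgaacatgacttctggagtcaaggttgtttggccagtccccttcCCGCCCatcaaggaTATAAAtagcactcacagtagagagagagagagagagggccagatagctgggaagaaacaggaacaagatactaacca
Nr1h4, GRCm38.p6 chr10:89506609-89506908, minus strand: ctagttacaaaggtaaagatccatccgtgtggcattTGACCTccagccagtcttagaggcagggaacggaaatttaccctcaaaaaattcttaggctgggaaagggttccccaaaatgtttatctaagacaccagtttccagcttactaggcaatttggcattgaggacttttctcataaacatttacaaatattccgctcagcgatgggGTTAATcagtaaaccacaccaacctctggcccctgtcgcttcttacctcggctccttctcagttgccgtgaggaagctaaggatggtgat
Ppara, GRCm38.p6 chr15:85735526-85735825, plus strand: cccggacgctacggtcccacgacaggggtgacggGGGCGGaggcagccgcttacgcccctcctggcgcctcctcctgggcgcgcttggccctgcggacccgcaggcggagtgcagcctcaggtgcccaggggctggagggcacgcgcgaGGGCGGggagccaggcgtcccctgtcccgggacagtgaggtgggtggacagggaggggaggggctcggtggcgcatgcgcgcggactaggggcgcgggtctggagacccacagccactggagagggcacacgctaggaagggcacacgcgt
The Nr1i3, Nr0b2 and Nr1h4 sequences had a GC content of 54.0%, 49.7% and 45.7% and held 3, 3 and 7 CG pairs, whereas the Ppara sequence had a GC content of 74.7% and 30 CG pairs. The median GC content of all 32851 promoter sequences was 52.7%. The nuclear receptor half-site, AGGTCA, was in sequences of Nr1h4, Rxra and Thrb, and 16.3% of all promoters hold it. The E-box, CACGTG, was in those of Nr1i3, Nr0b2 and Thrb (7.15% of all), and the GC box, GGGCGG, in those of Nr0b2, Ppara, Rxra and Thrb (35.7% of all). The TATA box, TATAAA, was in Nr0b2 and Thrb (13.6% of all), and an HNF1 half-site, GTTAAT, in Nr1h4 and Thrb (7.10% of all). An HNF4 core, CAAAGT, was in Thrb (14.4% of all), where it overlaps the HNF1 match. A match describes letters in this window and is not a binding site.

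Culture was first compared with the tissue it came from. In hepatocyte nuclei, 9 of the 10 receptor genes were lower in PH than in L, against 24.5% of 26778 tested genes called lower in the same comparison, and Ahr was not called. The median log2 fold change was -2.93 over the 10 genes and 0.18 over all tested genes. The values below are TMM-normalized CPM per sample, given as the lowest, the median and the highest of 8 mice, and calls rest on the quasi-likelihood test of edgeR, adjusted by Benjamini-Hochberg over all tested genes. For none of the 9 genes did any PH sample reach the lowest L or CS sample. The share of all tested genes that separate in this way was not computed, so this is a description.

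**Figure D1:**
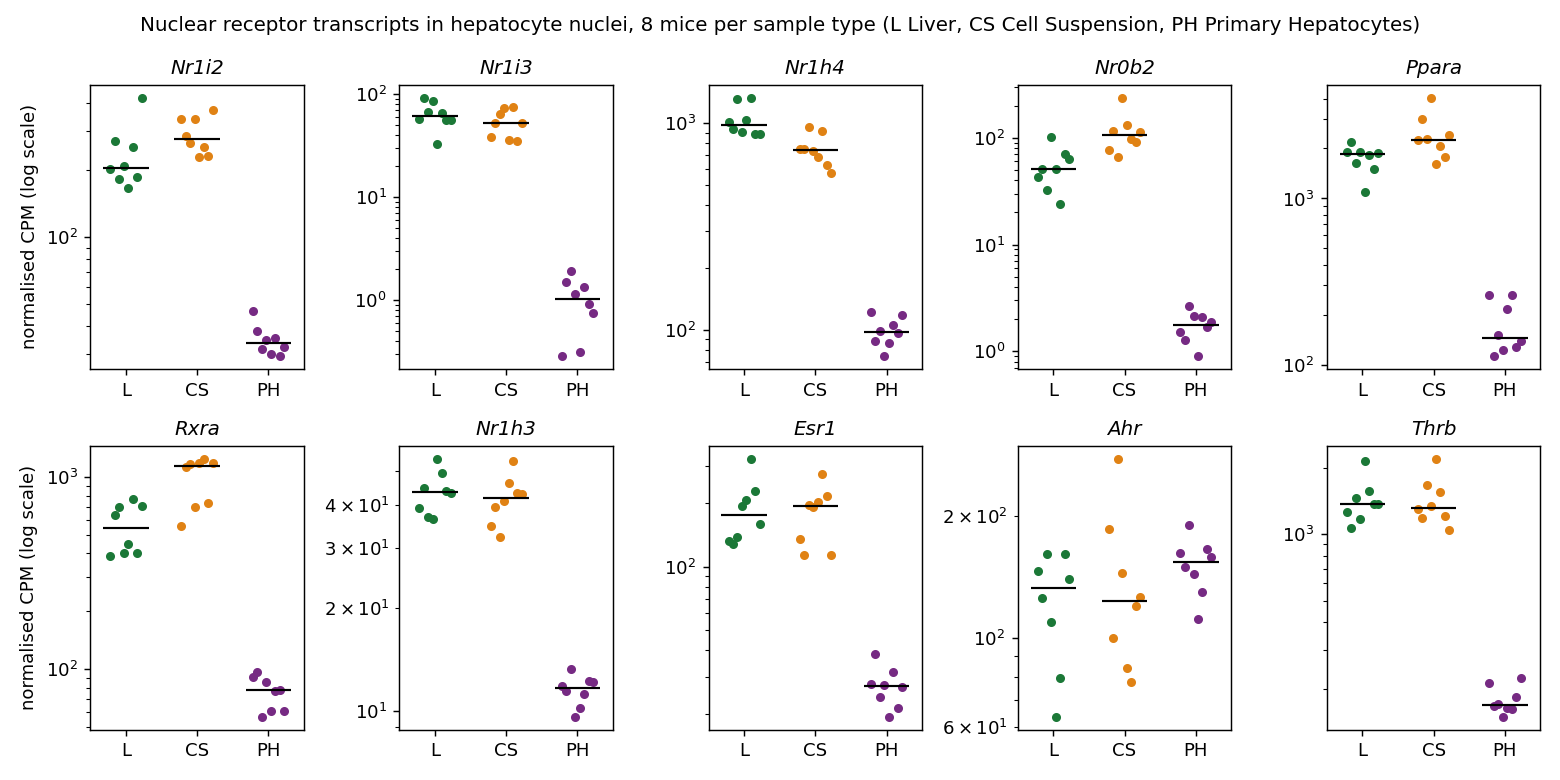
Normalized CPM of each receptor gene in hepatocyte nuclei on a log scale, with 1 point per mouse and a line at the median of 8 mice. The PH points of 9 genes lie below all L and CS points, and the Ahr points of the 3 sample types overlap.

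Of the receptors for foreign compounds, Nr1i3 showed the largest difference. Nr1i3 was at 32.7, 61.3 and 92.6 CPM in L, at 35.3, 52.9 and 75.2 CPM in CS and at 0.289, 1.04 and 1.94 CPM in PH. All 8 PH samples together held 139 Nr1i3 UMIs, against 7864 in L. The log2 fold change from L to PH was -6.03 (SE 0.30, adjusted p = 1.40e-16), which is 65.5-fold lower. Nr1i2 was at 166, 205 and 423 CPM in L, at 229, 276 and 375 CPM in CS and at 29.4, 33.5 and 47.0 CPM in PH. Its difference was smaller than that of Nr1i3, with a log2 fold change from L to PH of -2.76 (SE 0.17, adjusted p = 1.14e-14).

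Ahr, the remaining sensor of foreign compounds, was not called in either culture comparison by the main test. Ahr was at 63.7, 133 and 161 CPM in L, at 77.7, 123 and 278 CPM in CS and at 111, 154 and 191 CPM in PH. The 3 ranges overlap, and CS had both a wider range and the highest single sample. The log2 fold change was 0.30 (SE 0.21, adjusted p = 0.255) from L to PH and 0.11 (SE 0.21, adjusted p = 0.696) from CS to PH. Whether Ahr was called depended on the scaling and the design. With UMIs thinned to equal depth the log2 fold change from L to PH was 0.49 (adjusted p = 0.0417). With the mouse as a replicate block, pairing the samples of 1 liver, the log2 fold change from L to PH was 0.35 (adjusted p = 0.0240), and with library totals in place of TMM it was 0.78 (adjusted p = 0.00179) from L and 0.84 (adjusted p = 0.000915) from CS. Library totals also moved the median of all genes from 0.18 to 0.66 for PH over L and from 0.02 to 0.71 for PH over CS. Over the pools that held both sample types, with pool as a term, the log2 fold change from L to PH was 0.95 (adjusted p = 0.0109), and that from CS to PH was -0.07 (adjusted p = 0.799). The value from L rests on the L samples of mice 4 and 5 alone, and mouse 5 had the lowest plain CPM of Ahr in L (54.8).

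The bile acid pair fell together in PH. Nr1h4, the bile acid receptor, was at 890, 982 and 1328 CPM in L, at 574, 742 and 958 CPM in CS and at 74.6, 97.3 and 122 CPM in PH. The log2 fold change from L to PH was -3.40 (SE 0.14, adjusted p = 2.05e-18). Nr0b2, which encodes a repressor without a DNA-binding domain that FXR induces, was at 23.9, 51.1 and 102 CPM in L, at 65.7, 106 and 236 CPM in CS and at 0.905, 1.78 and 2.64 CPM in PH. From L to PH its log2 fold change was -4.97 (SE 0.30, adjusted p = 9.08e-15), and from CS, where it was highest, it was -6.07 (SE 0.31, adjusted p = 3.71e-16). The 8 PH samples held between 21 and 42 Nr0b2 UMIs each.

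Among the lipid sensors, Ppara was at 1092, 1860 and 2178 CPM in L, at 1615, 2257 and 4037 CPM in CS and at 113, 144 and 263 CPM in PH, a log2 fold change from L to PH of -3.32 (SE 0.22, adjusted p = 4.83e-14). Nr1h3 was at 36.2, 43.6 and 54.5 CPM in L, at 32.2, 42.0 and 53.6 CPM in CS and at 9.64, 11.7 and 13.3 CPM in PH. With a log2 fold change of -1.92 (SE 0.11, adjusted p = 2.00e-15), Nr1h3 had the smallest difference of the 9 called genes, and its samples were also close to each other within each group. Rxra, the shared partner, was at 386, 540 and 764 CPM in L, at 553, 1143 and 1245 CPM in CS and at 56.7, 78.0 and 97.0 CPM in PH, a log2 fold change from L to PH of -2.87 (SE 0.20, adjusted p = 1.41e-13).

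Both hormone receptors were lower in PH as well. Esr1 was at 128.2, 177 and 326 CPM in L, at 113, 194 and 276 CPM in CS and at 19.3, 26.9 and 38.5 CPM in PH, with a log2 fold change from L to PH of -2.81 (SE 0.21, adjusted p = 7.93e-13). Thrb, the main thyroid hormone receptor of hepatocytes, was at 1068, 1365 and 2153 CPM in L, at 1050, 1320 and 2196 CPM in CS and at 150, 170 and 225 CPM in PH. Its log2 fold change from L to PH was -2.99 (SE 0.16, adjusted p = 6.21e-16).

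Set against freshly isolated cells, the same 9 genes were lower in PH (23.6% of all tested genes were called lower), with log2 fold changes from -6.07 for Nr0b2 to -1.85 for Nr1h3. PH is the same group in both comparisons, so they are not independent. In all 23 alternative settings run for the hepatocyte comparisons, the 9 genes were called lower in PH against L and against CS. The 5 clusters with at least 100 PH hepatocyte nuclei held 16210 of the 16283. Within these 5 clusters, summed over mice, Nr1i3 ranged from 0.7 to 1.8 CPM, Nr0b2 from 1.6 to 3.5 CPM and Ahr from 122 to 203 CPM. Nr1h4 was at 190 CPM in the largest of these clusters and between 70.4 and 104 CPM in the others, and Nr1i2 was at 71.3 CPM in that cluster and between 15.2 and 40.7 CPM in the others. The other 73 PH nuclei lay in 10 clusters of mainly L or CS nuclei and held 28 of the 139 Nr1i3 UMIs and 44 of the 255 Nr0b2 UMIs, at 43.2 and 67.8 CPM. These clusters were made from the same cells and genes, so the values are a description.

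**Figure D2:**
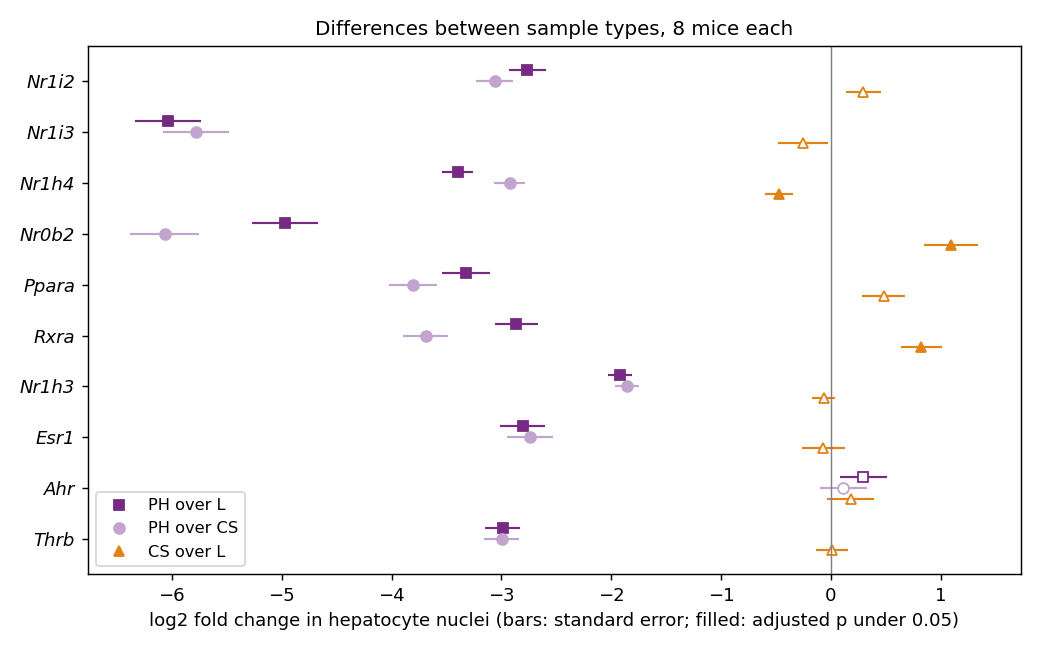
Log2 fold changes with standard errors for the 3 comparisons in hepatocyte nuclei, 8 mice per sample type, with filled symbols for an adjusted p under 0.05. The culture comparisons of 9 genes lie between -6.07 and -1.85, and those of Ahr are open symbols near 0.

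The state before culture was compared as CS over L. The lobe sampled, collagenase, washing in serum medium, spins and straining all separate CS from L and cannot be told apart. Here 2 of the 10 genes were called higher and 1 lower, against 10.5% and 11.6% of all tested genes called higher and lower. Nr0b2 was higher in CS, with a log2 fold change of 1.10 (SE 0.25, adjusted p = 0.00129), and Rxra was higher by 0.82 (SE 0.18, adjusted p = 0.00120). Nr1h4 was lower, at -0.47 (SE 0.13, adjusted p = 0.00762), so that FXR and its target SHP differed in opposite directions. For all 3 genes the ranges of L and CS overlap. Within mice, Nr0b2 and Rxra were higher in CS than in L in 8 of 8 and Nr1h4 was lower in 8 of 8, on normalized and on plain CPM. For Rxra, 5 of the 8 CS samples lie above the highest L sample.

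The called differences between CS and L depended on the splicing state counted. With spliced counts alone Nr1h4 was at 0.34 (adjusted p = 0.0679), the opposite direction, and neither Nr0b2 at 0.33 (adjusted p = 0.271) nor Rxra at 0.47 (adjusted p = 0.0507) was called. Spliced counts instead called Nr1i3 lower at -0.68 (adjusted p = 0.0232) and Nr1i2 higher at 0.46 (adjusted p = 0.0396). With unspliced counts alone 5 genes were called, with Ppara higher at 0.66 (adjusted p = 0.0130) and Nr1h3 lower at -0.61 (adjusted p = 0.000146) in addition. Within the pools that held both sample types, Nr1h4 was at -0.47 (adjusted p = 0.0597). The remaining genes were not called, with log2 fold changes from -0.25 for Nr1i3 to 0.48 for Ppara, and Thrb at 0.01 (SE 0.15) was nearest to 0. Ppara was higher in CS than in L of the same mouse in 8 of 8 mice (7 of 8 on plain CPM) and Nr1i2 in 7 of 8 (5 of 8 on plain CPM), and with the mouse as a replicate block neither was called, at 0.47 (adjusted p = 0.0760) and 0.32 (adjusted p = 0.0612). Without mouse 8, Nr1i2 was called higher, at 0.41 (adjusted p = 0.0312). On plain CPM, Thrb and Nr1h3 were lower in CS in 8 of 8 mice, by a mean log2 difference of -0.21 ± 0.12 and -0.27 ± 0.18 (SD), and Esr1 and Nr1i3 in 7 of 8, while on normalized CPM these 4 genes were lower in 3, 6, 6 and 6 of 8 mice.

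The share of a gene's UMIs that came from unspliced RNA, which is newly made and intron-bearing, separated the genes and the sample types. Over all genes the unspliced share had a median of 73.8% in L, 66.8% in CS and 63.9% in PH. Thrb, Nr1h4, Esr1, Ppara and Rxra had medians from 90.1% to 97.5% in L. Nr1i3 was at the other end with 6.20%, 11.3% and 17.2% as the lowest, median and highest of the L samples, and Nr0b2, Nr1h3, Ahr and Nr1i2 lay between, with medians of 64.8%, 65.0%, 66.0% and 87.5%. Nr1i3 and Nr0b2 are the 2 shortest genes here, and the part of gene length in these shares was not tested. In exact two-sided permutation tests of 8 against 8 samples, the share differed at an unadjusted p under 0.05 for 8 of the 10 genes in PH against L, 6 in PH against CS and 4 in CS against L. The same tests gave 73.7%, 40.1% and 68.4% of the genes of at least 10 CPM, so the receptor genes stood near or above this background in the first 2 comparisons and below it in CS against L. With adjustment over the 30 tests of these genes 14 passed, and with adjustment over all genes 15 passed (7, 5 and 3).

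The largest shift was in Nr1h3. Its unspliced share was 58.4%, 65.0% and 73.8% in L, 32.5%, 40.6% and 50.0% in CS and 40.9%, 47.4% and 52.4% in PH. All CS and all PH samples lay below all L samples. The CS mean was 24.5 percentage points lower than that of L (exact test, p = 0.000155, the smallest these tests can give, adjusted over all genes 0.000780), although its level did not differ by the main test. Ppara fell from a median of 94.1% in L to 85.9% in PH and Rxra from 90.1% to 81.2%, without overlap (adjusted p = 0.000465 for both), while neither passed in CS against L (adjusted p = 0.113 for Ppara and 0.555 for Rxra). Nr1h4 was lower in CS, with a median of 90.6% against 96.1% in L and no overlap. Over all genes together the share ranged from 72.5% to 77.5% in L, from 62.4% to 71.7% in CS and from 61.0% to 65.9% in PH. All L samples thus lay above all CS and PH samples there too, and a lack of overlap does not set these receptor genes apart. Nr0b2 had a lower share in PH than in CS, by 17.3 percentage points (adjusted p = 0.0141), on 21 to 42 UMIs per PH sample. Neither Esr1 nor Ahr nor Nr1i3 passed in any of the 3 comparisons after adjustment. With the pairing by mouse as a replicate block 15 of 30 passed.

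**Figure D3:**
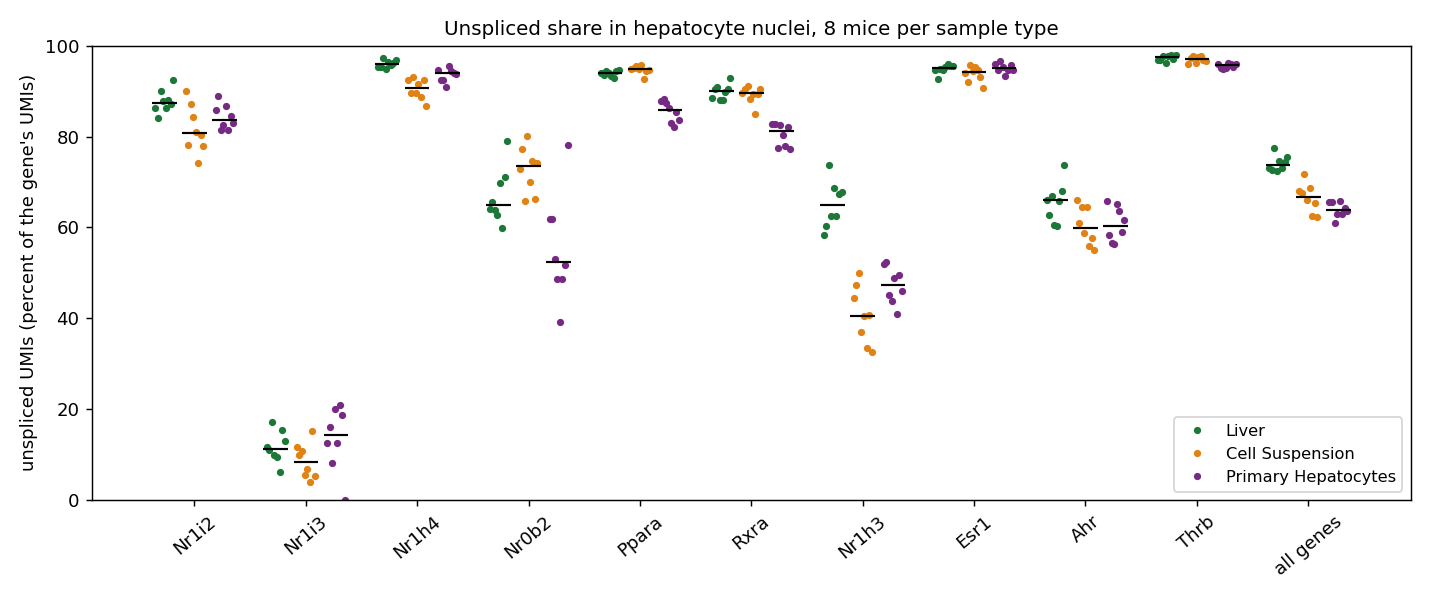
Unspliced UMIs as a percent of all UMIs of a gene in hepatocyte nuclei, with 1 point per mouse and a line at the median for each sample type. Nr1h3 stands at a median of 65.0% in L and 40.6% in CS, and Nr1i3 lies below 21% in all samples.

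Hepatocytes along the lobule differ in metabolism, so the receptors were compared between hepatocyte nuclei that scored as pericentral and as periportal. The score was the share of pericentral UMIs among the UMIs of 10 pericentral and 10 periportal genes, none of them a receptor described here, in nuclei thinned to 1000 UMIs, and within each sample the upper tercile of nuclei was compared with the lower tercile. An exact two-sided sign-flip test over 8 mice gave an unadjusted p under 0.05 for 8 of the 10 genes in L and 7 in CS, beside 43.7% and 35.7% of the 8601 genes of at least 10 CPM that are not in the score. With adjustment over the 20 tests of these genes 7 passed in L and 7 in CS, and with adjustment over all genes 7 in L and 6 in CS. The smallest p such a test can give is 0.00781, which after adjustment over all genes is 0.0293 in L and 0.0415 in CS, and adjusted values below are over all genes.

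Nr1i3 and Ahr were the most pericentral. In L, Nr1i3 was at 4.26, 15.2 and 24.0 CPM (lowest, median and highest) in periportal-scored nuclei and at 54.7, 106 and 183 CPM in pericentral-scored nuclei. The mean log2 difference was 2.89 ± 0.30 (SD, n = 8; exact test, adjusted p = 0.0293), in the same direction in 8 of 8 mice. Ahr was at 14.5, 33.8 and 43.0 CPM in periportal-scored nuclei and at 100.8, 235 and 289 CPM in pericentral-scored nuclei, a difference of 2.77 ± 0.24 (SD, n = 8; exact test, adjusted p = 0.0293). The 2 zones did not overlap between mice for either gene, and in CS the differences were 2.72 ± 0.77 for Nr1i3 and 2.87 ± 0.36 for Ahr (SD), again in 8 of 8 mice.

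Rxra and Ppara were also higher in pericentral-scored nuclei, by smaller amounts. In L the mean log2 difference was 0.68 ± 0.26 for Rxra and 0.41 ± 0.10 for Ppara, and in CS it was 0.73 ± 0.20 and 0.47 ± 0.14 (SD), each in 8 of 8 mice (exact test, adjusted p = 0.0293 in L and 0.0415 in CS). Nr1h4 was higher in pericentral-scored nuclei by 0.21 ± 0.06 in L (8 of 8 mice) and by 0.16 ± 0.23 in CS (6 of 8 mice; exact test, adjusted p = 0.235). Nr0b2 was higher by 0.40 ± 0.24 in CS (8 of 8 mice) and by 0.30 ± 0.31 in L (6 of 8 mice; exact test, adjusted p = 0.0936). The difference between the sample types was not tested for these 2 genes.

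Esr1 ran the other way. In L it was at 124, 232 and 353 CPM in periportal-scored nuclei and at 51.6, 114 and 241 CPM in pericentral-scored nuclei, a mean log2 difference of -1.005 ± 0.64 in L and -1.18 ± 0.65 in CS (SD), with 8 of 8 mice periportal in each (exact test, adjusted p = 0.0293 in L and 0.0415 in CS). The ranges of the 2 zones overlap across mice, as do those of Rxra and Ppara. Thrb was lower in pericentral-scored nuclei by a small amount in L, -0.14 ± 0.06 (8 of 8 mice), and was at -0.24 ± 0.17 in CS (7 of 8 mice; exact test, p = 0.0156, adjusted p = 0.0634). Nr1i2 and Nr1h3 did not pass in either sample type, with 4 of 8 and 3 of 8 mice pericentral in L.

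**Figure D4:**
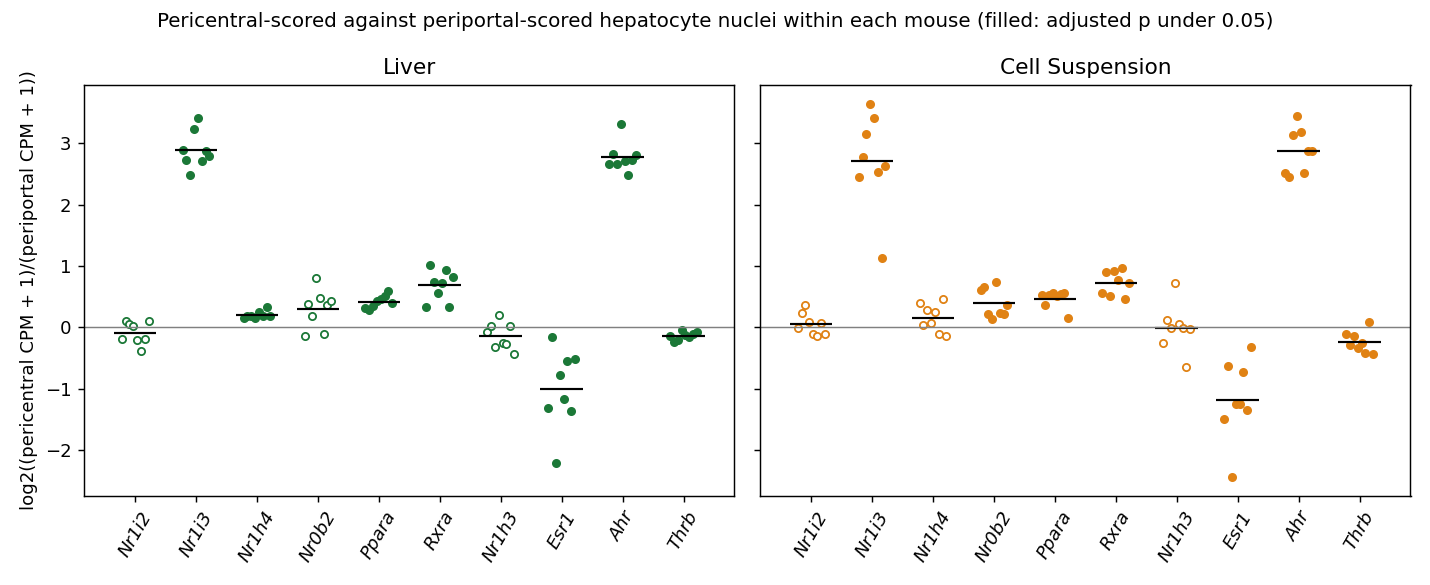
Log2 ratio of pericentral-scored over periportal-scored hepatocyte nuclei, 1 point per mouse and a line at the mean of 8 mice, for L and CS, with filled points for a p under 0.05 after adjustment over the 20 tests shown. Nr1i3 and Ahr stand near 2.8 in both panels (means from 2.72 to 2.89) and Esr1 near -1.

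The receptor genes were then compared between hepatocyte nuclei and the other nuclei of L. Hepatocyte markers were also found in the other nuclei. As a percent of their CPM in hepatocyte nuclei of the same sample, the 6 markers summed to a median of 21.2% in endothelial nuclei. The medians were 27.01% in Kupffer and 24.2% in stellate nuclei. Nr1i2, Nr1i3, Nr0b2 and Ppara stood at or under this marker share in endothelial nuclei in 8 of 8 samples, at medians of 12.8%, 9.50%, 15.6% and 13.3%. Nr1h4 and Thrb were above the marker share in endothelial nuclei in 1 and 0 of 8 samples, at medians of 17.3% and 15.5%. The part of hepatocyte RNA in these values was not tested, so they cannot be taken as expression in endothelial cells. CPM here are plain, and n = 8 mice for each cell type.

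Stellate nuclei had the highest Nr1h4. It was at 2341, 2527 and 2938 CPM in stellate nuclei of L, at 806, 922 and 1253 CPM in hepatocyte nuclei, at 115, 185 and 232 CPM in endothelial nuclei and at 66.5, 162 and 214 CPM in Kupffer nuclei. The stellate and hepatocyte ranges do not overlap, and the stellate level was higher in 8 of 8 mice by 1.39 ± 0.28 on the log2 scale (SD; exact sign-flip test over mice, adjusted p = 0.00837 over 30 tests). In these stellate nuclei 96.7% of 8623 Nr1h4 UMIs were unspliced, close to the 96.2% of hepatocyte nuclei. The stellate identity rested on 8 markers that summed to between 5703 and 8616 CPM there and to between 17.8 and 44.7 CPM in hepatocyte nuclei. Markers of the biliary list also summed to between 436 and 941 CPM in the stellate nuclei, and their part was not tested.

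Esr1 was also highest in stellate nuclei, at 469, 571 and 682 CPM against 124, 161 and 308 CPM in hepatocyte nuclei, again without overlap and in 8 of 8 mice (log2 difference 1.72 ± 0.48, SD; exact test, adjusted p = 0.00837). In endothelial nuclei Esr1 was at 76.8, 105 and 131 CPM, a median of 60.1% of the hepatocyte level and above the marker share in 8 of 8 samples. The nuclei that the authors named biliary, between 10 and 57 per L sample, held Esr1 at 237, 396 and 710 CPM. Of these 220 nuclei 157 came from a cluster in which 5 mesothelial markers summed to 4039 CPM and 8 biliary markers to 3906 CPM, and the part of mesothelial cells in these values was not tested.

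Kupffer nuclei, the resident macrophages, had the highest Nr1h3. LXR alpha is known as a receptor of macrophages as well as of hepatocytes, and Nr1h3 was at 116, 226 and 245 CPM in Kupffer nuclei against 33.3, 40.4 and 46.9 CPM in hepatocyte nuclei. The difference was 2.30 ± 0.42 on the log2 scale (SD, 8 of 8 mice; exact test, adjusted p = 0.00837), with 649 UMIs behind the Kupffer values. The Kupffer markers summed to between 4186 and 7189 CPM in these nuclei, beside 855 to 1303 CPM of markers of other leukocytes, and the nuclei named leukocyte held Nr1h3 at a median of 6.77 CPM. Thrb in Kupffer nuclei was at 945, 1016 and 1152 CPM, close to the 1075, 1267 and 1853 CPM of hepatocyte nuclei, with overlapping ranges but a lower value in 8 of 8 mice (log2 difference -0.36 ± 0.24, SD; exact test, adjusted p = 0.00837). Rxra in Kupffer nuclei stood at a median of 77.1% of the hepatocyte level, and both genes were above the marker share in 8 of 8 samples.

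The Ahr levels of hepatocyte and endothelial nuclei lay close together. Ahr was at 93.6, 146 and 198 CPM in endothelial nuclei and at 54.8, 126 and 153 CPM in hepatocyte nuclei, with overlapping ranges and a higher endothelial value in 6 of 8 mice (log2 difference 0.35 ± 0.67, SD; exact test, adjusted p = 0.148). In Kupffer and stellate nuclei it was lower in 8 of 8 mice, with medians of 40.2 and 47.4 CPM, and the stellate range overlapped that of hepatocyte nuclei. The hepatocyte level ranked first for Nr1i2, Nr1i3, Nr0b2, Ppara, Rxra and Thrb, with the Kupffer Rxra and Thrb levels and the stellate Nr1i2 and Nr0b2 levels overlapping it in range.

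**Figure D5:**
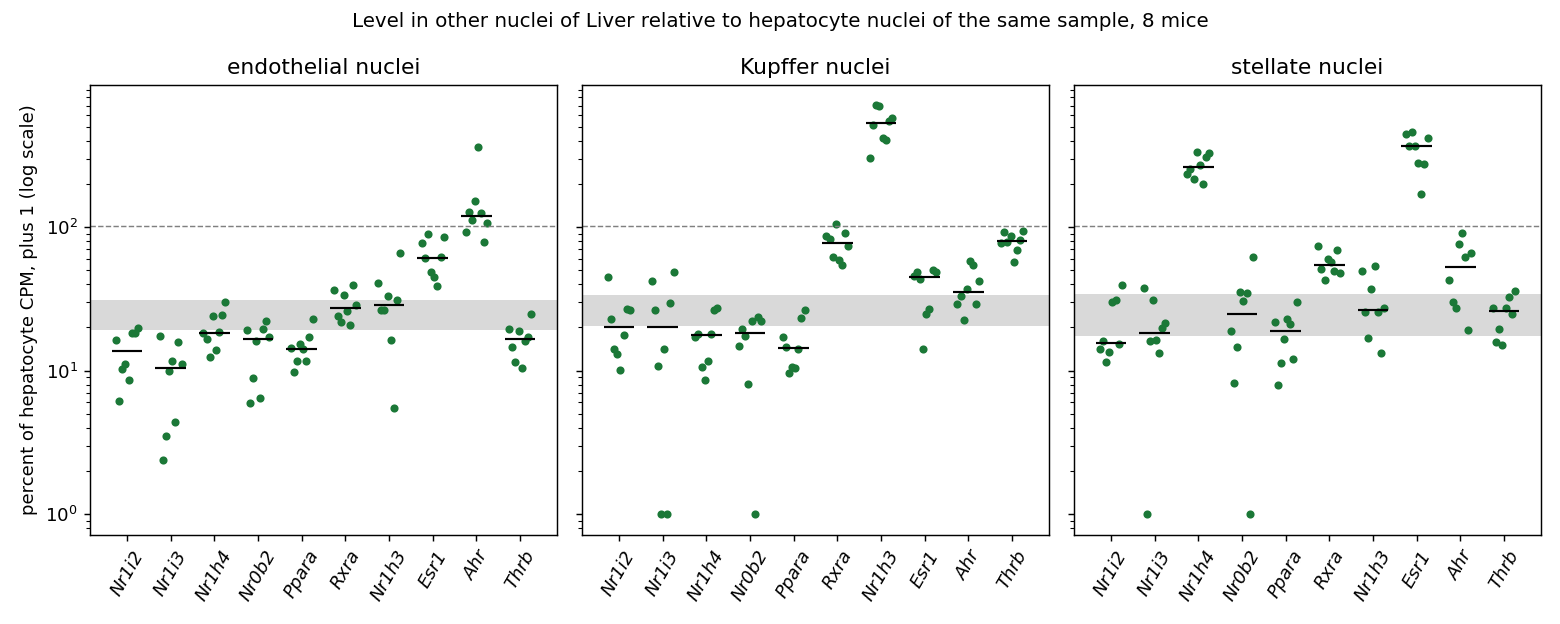
CPM of each receptor gene in endothelial, Kupffer and stellate nuclei of L as a percent of the CPM in hepatocyte nuclei of the same sample, plus 1, on a log scale, with 1 point per mouse and a line at the median. The grey band is the range of the summed hepatocyte markers and the dashed line is the hepatocyte level, and Nr1h4 and Esr1 in stellate nuclei and Nr1h3 in Kupffer nuclei lie above that line in all 8 mice.

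In endothelial nuclei, 5 genes were lower in PH than in L (14.6% of 18279 tested genes were called lower): Nr1h4, Ppara, Rxra, Esr1 and Ahr. Esr1 was at 74.5, 102 and 127.6 normalized CPM in L and at 13.5, 29.1 and 44.7 in PH, without overlap, and its log2 fold change was -1.84 (SE 0.24, adjusted p = 3.65e-08). Ahr was at 89.9, 142 and 188 CPM in L and at 46.7, 92.9 and 141 CPM in PH, with overlapping ranges and a log2 fold change of -0.67 (SE 0.18, adjusted p = 0.00414). With pool as a covariate, Esr1 and Ahr were the 2 genes called. In PH the hepatocyte markers of endothelial nuclei stood at a median of 60.1% of the hepatocyte level (42.1% to 132%). In plain CPM they summed to between 1583 and 3572 in L endothelial nuclei and between 1028 and 3589 in PH. In hepatocyte nuclei they fell from a median of 11231 in L to 3475 in PH, so the percent has a lower base in PH. The PH values of Nr1h4, Ppara and Ahr, at medians of 59.9%, 56.1% and 45.4% of the hepatocyte level, lay at or under the marker median. In L, Ppara was under the marker share in every sample and Nr1h4 in most, while Rxra, Esr1 and Ahr were above it in every sample. The part of hepatocyte RNA in these 5 calls was not tested, so they cannot be taken as changes of endothelial cells. The marker share was 132%, 90.2% and 93.1% in PH of mice 3, 4 and 8, whose pools also held an L sample. It was at most 63.7% in PH of the other mice, and the part of RNA from other samples of a pool was not tested.

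Against CS, 6 genes were lower in PH endothelial nuclei (9.84% of all tested genes were called lower): Nr1i3, Nr1h4, Nr0b2, Ppara, Rxra and Esr1. In CS the hepatocyte markers of endothelial nuclei stood at a median of 24.0% of the hepatocyte level (11.7% to 42.6%). Ppara was above that share in 0 of 8 CS samples, Nr1h4 in 1, Nr0b2 in 3, Nr1i3 in 4, Rxra in 5 and Esr1 in 8. The calls of Nr1i3 and Nr0b2 rest on 19 and 42 UMIs in all CS samples and 5 and 7 in all PH samples. The part of hepatocyte RNA in these 6 calls was not tested, so they cannot be taken as changes of endothelial cells. Rxra had a log2 fold change of -1.99 (SE 0.22, adjusted p = 2.31e-09). In CS over L, Rxra was higher in endothelial nuclei (2.61% of all tested genes were called higher), at 114, 237 and 337 CPM in CS against 91.1, 134 and 173 CPM in L, with a log2 fold change of 0.79 (SE 0.19, adjusted p = 0.00609). It stood at a median of 26.2% of the hepatocyte level in L, above the marker share in 8 of 8 samples, and of 26.8% in CS, above it in 5 of 8, while hepatocyte Rxra was also higher in CS, and the part of hepatocyte RNA was not tested. With the replicate block Nr0b2 was called in addition, on 42 UMIs in all CS samples, and with spliced counts alone no gene was called.

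The Kupffer and stellate nuclei were tested between CS and L only. Stellate nuclei of PH, 10 to 54 per sample in 8 samples, were left out of the test. On plain CPM, stellate Nr1h4 was at 283, 386 and 847 in PH, on 263 UMIs in all. Stellate Esr1 was at 14.1, 96.0 and 138 in PH, on 47 UMIs. Both lay below all L and CS samples, whereas stellate Ahr in PH, at a median of 51.7, overlapped L. These PH values are a description. In Kupffer nuclei edgeR called 0 of the 10 genes (1.69% of 13819 tested genes were called in either direction), 1 gene had an unadjusted p under 0.05, and DESeq2 called 0. That gene was Rxra, at 324, 529 and 804 CPM in CS and at 209, 372 and 498 CPM in L (log2 fold change 0.55, SE 0.18, adjusted p = 0.153). Without mouse 4, Nr1h4 was called lower. In stellate nuclei, for which 7 CS and 8 L samples had at least 10 nuclei, Rxra was higher (1.38% of 13516 tested genes were called higher), with a log2 fold change of 0.83 (SE 0.22, adjusted p = 0.0302), and Nr1h4 was lower (0.237% of genes were called lower), at 1420, 1864 and 1908 CPM in CS against 2270, 2451 and 2900 CPM in L (log2 fold change -0.54, SE 0.14, adjusted p = 0.0369). The stellate ranges of Nr1h4 do not overlap. Nr1h4 was not called with the replicate block, with pool as a covariate or with thinned counts, and Rxra was not called with library totals or with TMM factors from all genes. Both calls were lost when mouse 3 or mouse 6 was left out, and 1 of them when any other mouse was left out.

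Rxra was called higher in CS than in L in hepatocyte, endothelial and stellate nuclei, with log2 fold changes of 0.82, 0.79 and 0.83, and with spliced counts it was called in none of the 3. The stellate call was also lost with library totals, with TMM factors from all genes and without mouse 3, 5 or 6. Nr1h4 was at -0.47, -0.38, -0.62 and -0.54 in hepatocyte, endothelial, Kupffer and stellate nuclei, with the endothelial and Kupffer values not called. In Kupffer nuclei Nr1h4 was above the marker share in 0 of 8 L and 0 of 8 CS samples, and in endothelial nuclei in 1 of 8 of each. In stellate nuclei it was above that share in all 8 L and all 7 CS samples. These comparisons come from the same samples and libraries. Hepatocyte markers were found in the summed nuclei of each of these cell types, and the part of hepatocyte RNA was not tested.

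The L and CS samples of 1 mouse come from 1 liver, so the levels were correlated across the 8 mice. Over 10 genes, Pearson's r of log2(CPM + 1) in hepatocyte nuclei ranged from 0.63 for Nr1i2 to 0.88 for Nr1h4, with a median of 0.73 beside 0.57 over the 8618 genes of at least 10 CPM. By the exact permutation of the pairings 6 of the 10 genes had an unadjusted p under 0.05, as did 35% of all these genes. After adjustment over the 10 genes 4 passed, and after adjustment over all genes 2 passed, Nr1h4 and Rxra. Rxra had r = 0.83 (exact test, p = 0.00878, adjusted over all genes 0.0489) and Spearman's rho = 0.93 (exact test, p = 0.00223), and r was 0.78 without the 2 mice farthest from the median. Nr1h4 had r = 0.88 (exact test, p = 0.00506, adjusted over all genes 0.0360), with 0.52 without 2 mice. Esr1 and Thrb had r of 0.81 and 0.82 (adjusted over all genes 0.0659 and 0.0723), with 0.59 and 0.43 without 2 mice. Leaving out mouse 1, 2, 6 or 7 left 0 genes past the threshold over the 10 genes, so the calls depend on which mice are included. The pools held both samples of a mouse for 2 mice, too few for values within pools.

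Over the 24 hepatocyte sums, the genes of at least 10 CPM whose pattern was most like that of a receptor were given by Pearson's r of log2(CPM + 1), which is set mainly by the gap between PH and the other groups. They were Slc47a1 (0.99) and Pbld2 (0.99) for Nr1i3, Pde4dip (0.99) and Mgll (0.98) for Nr1i2, Hrg (0.99) and Hibch (0.99) for Nr1h4, Mlxipl (0.99) and Gys2 (0.98) for Nr0b2, Vwce (0.99) and Aldh2 (0.99) for Ppara, Akap1 (0.98) and Hs6st1 (0.98) for Rxra, Ghr (0.99) and Acsm5 (0.99) for Nr1h3, Esrrg (0.98) and Fam169b (0.97) for Esr1, and AI182371 (0.99) and Plcb1 (0.99) for Thrb. Ahr, whose groups overlap, had lower values, with Lrp5 at 0.85 and Prepl at 0.82.

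Known targets of each receptor were then counted in hepatocyte nuclei, in lists of genes chosen with earlier results of these data known. Values for named targets are medians of normalized CPM over the 8 mice of a group, and the number in parentheses after a pair of levels is the log2 fold change from L to PH. The counts stand beside 24.5% of all 26778 tested genes called lower and 30% called higher in PH over L, and 23.6% and 26.9% in PH over CS. For CS over L these shares were 11.6% and 10.5%. Of 9 PXR targets, 6 were lower and 2 higher in PH than in L, with a median log2 fold change of -2.33 (5 lower and a median of -1.86 with library totals). Cyp3a25, a cytochrome P450 gene, went from 4022 CPM in L to 56.9 CPM in PH (log2 fold change -5.97), and Cyp3a11, the textbook PXR target, from 326 to 28.1 CPM (-3.48). Slco1a4, an organic anion carrier, went from 184 to 10.1 CPM (-4.00). Gsta1, a glutathione transferase gene with close paralogs among which reads may be split, was higher, at 0.105 CPM in L, 2.05 CPM in CS and 41.6 CPM in PH (adjusted p = 2.21e-14).

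Of 9 CAR targets, 5 were lower and 1 was higher in PH than in L, with a median of -0.88 (4 lower and a median of -0.40 with library totals). Against CS, 6 were lower and 1 higher, or 4 and 1 with library totals. Cyp2c54 went from 203 CPM in L to 3.93 CPM in PH (-5.88), Cyp2c37 from 77.6 to 3.18 CPM (-4.89) and Cyp2c29 from 627 to 22.5 CPM (-4.71). Cyp2b10, the gene by which CAR activity is usually read, was higher, at 1.19 CPM in L, 3.20 CPM in CS and 31.3 CPM in PH, a log2 fold change of 4.83 (SE 0.41, adjusted p = 1.42e-11). Cyp2b and Cyp2c genes have near-identical copies, so their separate values are uncertain. Cyp2b10 and Gsta1 were thus higher in the samples in which Nr1i3 and Nr1i2 were lowest.

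Of 9 FXR targets, with Nr0b2 among them, 7 were lower and 1 was higher in PH, with a median of -3.07. Cyp7a1, the rate-limiting enzyme of bile acid synthesis, which FXR and SHP are known to repress, went from 182 CPM in L to 1.43 CPM in PH (-6.61), and Cyp8b1, the sterol 12 alpha-hydroxylase, from 33.2 to 2.32 CPM (-3.65). Genes of this list that FXR is known to induce and genes that it is known to repress were both among those that fell. In CS over L, Nr0b2 was the 1 gene of this list called, and with library totals 1 gene was higher and 2 were lower.

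Of 16 PPAR alpha targets, 13 were lower and 1 was higher in PH than in L, and 16 of 16 were lower than in CS (11 with library totals). Cyp4a10 and Cyp4a14, the fatty acid hydroxylases, went from 15.5 to 0.977 CPM (-5.23) and from 6.18 to 0.348 CPM (-5.31). Mouse 3 had the highest level of both genes in L (159 and 88.0 CPM), and without mouse 3 the log2 fold changes were -4.22 and -4.21. Pdk4, a brake on glucose oxidation, was higher in PH than in L, at 3.44 CPM in L, 32.7 CPM in CS and 25.0 CPM in PH (log2 fold change 2.21, adjusted p = 0.00220). Plin2 and Angptl4 were not called in PH over L, at 0.12 and -0.05, and were higher in CS than in L, as were 6 of the 16 genes.

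Of 9 LXR targets, 8 were lower in PH than in L and 9 lower than in CS, while 7 were higher in CS than in L (4 with library totals). Fasn, the fatty acid synthase, was at 193 CPM in L, 1286 CPM in CS and 21.6 CPM in PH. Abcg5 and Abcg8, which form the sterol exporter and are neighbors in the genome, went from 91.0 to 4.64 CPM (-4.29) and from 80.2 to 8.67 CPM (-3.20) from L to PH. In CS over L the median over this list was 0.73, beside 0.11 over all genes (0.50 and -0.11 with library totals), and Nr1h3 itself was at -0.06.

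The AHR targets were divided. Of 7 genes, 3 were higher and 2 lower in PH than in L, with a median of 0.39 (0.88 with library totals). Against CS, 1 was higher and 3 were lower, with a median of -0.53, and with library totals 2 were higher and 2 lower, with a median of 0.16. Cyp1a2, a drug-metabolizing P450 gene, went from 165 to 5.39 CPM (-4.88) and Ugt1a6a, a glucuronosyltransferase gene that shares its last exons with other Ugt1a genes, from 60.6 to 5.17 CPM (-3.42). Tiparp, which encodes an ADP-ribosyltransferase, was at 20.02 CPM in L, 192 CPM in CS and 135 CPM in PH, a log2 fold change of 2.76 (SE 0.24, adjusted p = 2.21e-11) from L to PH and of 3.45 (adjusted p = 1.10e-11) from L to CS. Of 6 thyroid hormone targets, 5 were lower and 1 higher in PH than in L, among them Dio1, the deiodinase, from 50.1 to 1.63 CPM (-4.85), Thrsp from 580 to 18.2 CPM (-4.85) and G6pc, the glucose-6-phosphatase, from 1083 to 54.7 CPM (-4.37). In CS over L, 3 of these 6 genes were called higher and 0 lower, also with library totals.

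Partners and paralogs did not follow a single direction. Of 13 such genes, 3 were higher and 5 lower in PH than in L, with a median of 0.19, and with library totals 7 were higher and 2 lower, with a median of 0.68. Against CS, 2 were higher and 6 lower, with a median of -0.35, and with library totals 6 were higher and 2 lower, with a median of 0.34. Ppard, which encodes the delta form of the PPAR family, was higher, at 65.6 CPM in L, 76.6 CPM in CS and 246 CPM in PH (log2 fold change 1.85, SE 0.10, adjusted p = 6.68e-16), and Rarb, a retinoic acid receptor, was higher at 1.05 and Nr1h2, the second LXR, at 0.78. Thra, the second thyroid hormone receptor, was lower at -2.03, Esrra at -0.86 and Pparg at -0.72. Rxrb, the second retinoid X receptor, was at 14.3 CPM in L and 15.7 CPM in PH and was not called (0.19, adjusted p = 0.145), nor was Rara (-0.42, adjusted p = 0.0628).

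Of 20 other nuclear receptors of liver, 16 were lower in PH than in L and 4 were not called, with a median of -1.55, and with library totals 13 were lower and 2 higher, with a median of -1.06. Esrrg, an orphan receptor, was lower by -4.29 and Nr2f2 by -3.11, while Nr2c2 was at 157 CPM in L and 169 CPM in PH (0.05, adjusted p = 0.781). Nr4a1, an early response gene, was at 7.40 CPM in L, 102 CPM in CS and 7.68 CPM in PH. Of 15 coregulators, 12 were lower and 1 was higher, with a median of -0.44, and with library totals 6 were lower and 3 higher, with a median of 0.05. Ppargc1b and Ppargc1a, the PGC-1 coactivators, were lower by -3.74 and -2.44 and Tbl1xr1, a corepressor subunit, by -0.91. Nrip1, a corepressor, was higher by 0.87 (adjusted p = 2.16e-06), and Med1 was not called (-0.02, adjusted p = 0.861).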

How the data were processed

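The authors sequenced single-nucleus libraries of 6 pools of 4 hashtagged samples (10x 3′ chemistry) and made the deposited counts with Salmon Alevin and Alevin-fry on GRCm38. They are raw counts of UMIs for each gene and nucleus, in 1 matrix for each pool, with separate columns for each splicing state (spliced, unspliced or ambiguous). The submitters' processing notes name bcl2fastq 2.19.0. The authors' table of nuclei gives the sample by hashtag, the sample type, the cluster and the cell type, after their removal of doublets. All 53467 of its nuclei were used, and their UMI totals equaled the authors' totals in 53467 of 53467. A hashtag named CD2 carries the sample type CS and was taken as CS of mouse 2. Deposited hashtag counts were not used here, nor were the bulk RNA and protein data.

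UMIs of the 3 splicing states were added and summed per sample and cell type. Clusters that the authors name only as cultured were assigned to hepatocyte, endothelial or stellate nuclei by the largest summed CPM of fixed markers. Genes with at least 10 counts and samples with at least 10 nuclei entered edgeR 4.0.16 (R 4.3.3), with TMM factors from genes that pass filterByExpr, the quasi-likelihood model with the sample type as its single factor, as in the study's pseudo-bulk design, and Benjamini-Hochberg adjustment over all tested genes at 0.05. The fits were tested on simulated data. Alternatives included DESeq2 1.42.0, other scalings and filters, thinning, pool or mouse terms and leaving out each mouse.

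Exact permutation tests used Python 3.11.15 and, after seeing the data, were also run over all genes of at least 10 CPM. The genes, lists and tests were chosen with earlier results of these data known. From each list the text names up to 3 called genes per direction with the largest change from L to PH and up to 2 not called with the smallest, of at least 10 CPM; some of these are not reported here. The difference between endothelial and hepatocyte nuclei, library totals as a scaling (counts of the lists included), the TMM alternative over all genes and the fit without cluster 8 were added after seeing the data. By the study's methods, an isolation gives the lobe, the suspension and the cultured cells, and samples with the same number were taken to share a liver. Over 3835 genes of at least 50 CPM, deviations from the group means correlated between L and CS of a mouse with a median r of 0.76, and between PH and L with 0.06. The sample of the same number was the best match in 7 of 8 for CS and L. It was so in 1 of 8 for PH and L and 2 of 8 for PH and CS, so the pairing of PH rests on the numbers alone. Coordinates are from GENCODE M21 and promoter sequences from RefSeq (GRCm38.p6). Reads of a gene and its antisense partner were not examined separately. Replicates are separate mice.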

Additional observations from a re-analysis of the deposited data

Results flagged for a closer look

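In hepatocyte nuclei, 30 groups of 8 samples (10 receptor genes in 3 sample types) were examined for a sample far from the other 7, and 3 were found, where chance gives about 1 in 20. Nr1i2 in Liver of mouse 8 was at 423 normalized CPM, with the other mice between 166 and 269. Nr0b2 in Cell Suspension of mouse 4 was at 236, with the others between 65.7 and 132. Thrb in Liver of mouse 5 was at 2153, with the others between 1068 and 1562.

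The change from Liver to Primary Hepatocytes was compared between endothelial and hepatocyte nuclei of the same mouse, as the difference of log2(normalized CPM + 1) ratios, with an exact sign-flip test over 8 mice and adjustment over 10 genes. This test was chosen after seeing the data, and 9 of 10 genes passed. At an unadjusted p under 0.05 the same test gave 50.2% of the 8618 genes of at least 10 CPM, and 59% of the 3877 of them that were lower in PH hepatocyte nuclei, a group that holds 9 of the receptor genes, of which 8 passed. The endothelial ratio was higher (fell less) for Nr1i3 by 3.54, for Nr0b2 by 2.69, for Thrb by 2.46, for Ppara by 2.35, for Nr1i2 by 2.27, for Nr1h4 by 2.06, for Rxra by 1.71 and for Esr1 by 0.96. For Ahr it was the lower ratio, with a difference of -0.97. The endothelial values of Nr1i3 and Nr0b2 rest on 35 and 52 UMIs in all Liver samples and 5 and 7 in all Primary Hepatocytes samples, so their ratios depend on the pseudocount. With a pseudocount of 5 in place of 1 the differences were 2.87 for Nr1i3 and 2.31 for Nr0b2, and 10 of 10 genes passed, with Nr1h3 at 1.21 (exact test, adjusted p = 0.0312). On plain CPM the differences were 0.47 for Esr1 (7 of 8 mice), -1.46 for Ahr and between 1.22 and 3.23 for the other 7 of these genes. Beside these values, the hepatocyte markers in endothelial nuclei stood at a median of 21.2% of the hepatocyte level in Liver and of 60.1% in Primary Hepatocytes, and the part of hepatocyte RNA in these differences was not tested. That percent has a lower base in Primary Hepatocytes, where the markers of hepatocyte nuclei had a median of 3475 plain CPM against 11231 in Liver.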

How the results depend on the processing

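In hepatocyte nuclei, 676 of 690 values of single receptor genes under the alternatives kept their direction or stayed uncalled on the same side of the threshold, among them all values of the 9 genes that fell in culture in PH over L and in PH over CS. The value that reversed was Nr1h4 in CS over L with spliced counts (0.34). In CS over L, Nr0b2 and Rxra with spliced counts and Nr1h4 within pools were no longer called. Newly called were 10 values, 5 of Ahr in culture comparisons and 5 in CS over L (Nr1i2 and Nr1i3 with spliced counts, Nr1i2 without mouse 8, and Ppara and Nr1h3 with unspliced counts). Unspliced counts gave 5 called genes in that comparison. In endothelial nuclei, pool as a covariate gave 2 called genes in PH over L. In CS over L, no filter, the replicate block and unspliced counts gave 2, spliced counts 0, and leaving out 1 mouse 1 to 2. In stellate nuclei, library totals, no filter, the replicate block, pool as a covariate, unspliced counts, thinning and the removal of misplaced nuclei gave 1, spliced counts 0, and leaving out 1 mouse 0 to 1. In Kupffer nuclei leaving out 1 mouse gave 0 to 1. For L and CS of the same mouse, unspliced counts gave 8 correlated genes and leaving out 1 mouse 0 to 6. The cause was not tested. The pairing by mouse as a replicate block changed no other count by over 1.5 times. Depth limits Nr1i3 and Nr0b2 in PH (as few as 8 and 21 UMIs per sample) and all values in CS Kupffer and stellate sums.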
